A study of Mus musculus with 6 samples.

Results

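The cytosolic ribosomal protein genes of cultured mouse cells, labelled as nucleus pulposus cells, are described here across 3 genotypes of Chsy3. They were chosen by symbol, as the Rps, Rpl, Rplp and Rpsa genes of the small and large subunits, without names that mark a pseudogene and without the Rps6k kinases, and with at least 10 counts in every library. The symbols matched 90 genes, and 84 of the 46095 gene symbols in the table also met the minimum, 34 of the small and 50 of the large subunit. The rule itself uses no measured difference, but it was set with earlier results of these data known. All 84 were among the 16061 genes tested. The gene nearest below the minimum was Rps12l1, whose lowest library had 9 counts, and the nearest above it was Rps29, with a lowest library of 29. The other 5 symbols left out were Rpl10l, Rpl32l, Rpl39l, Rpl3l and Rps4l. In the GENCODE annotation, 81 of the 84 are protein coding and 3, namely Rpl6l, Rps3a2 and Rps3a3, are processed pseudogenes despite their names.

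Each cytosolic ribosome carries ribosomal RNA and a fixed set of ribosomal proteins, mostly in a single copy each, so cells make these proteins in near-equal amounts. Their mRNAs are abundant in dividing cells, and many begin with a run of pyrimidines at the cap (the 5′ terminal oligopyrimidine motif) through which mTOR signalling and Larp1 control their translation. Mammalian genomes also hold very many processed pseudogenes of them, reverse-transcribed copies without introns, whose sequence can be almost the same as that of the parent mRNA.

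RNA was sequenced from cells that the labels name nucleus pulposus cells, after the soft core of the intervertebral disc. The 3 groups were cells of Chsy3 knockout (KO), Chsy3 heterozygous (HE) and wild-type (WT) mice, with 2 libraries each. Chsy3 encodes a chondroitin sulfate synthase. All groups were labelled as male and 8 weeks of age, and all cells were used at passage 2 after collagenase digestion and growth in medium with 20% serum. The labels do not describe the Chsy3 alleles, and they do not say that libraries of a genotype came from separate animals or cultures. P-values therefore reflect how far these libraries scatter, and that scatter may be only technical. In bulk RNA, fewer cells of a type and less RNA per cell cannot be told apart.

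Total counts lay between 29622117 and 33899611 per library, and the scaling factors between 0.974 and 1.02. Chsy3 had 3.58 and 2.23 CPM (counts scaled to library size) in KO, 5.79 and 6.20 CPM in HE, and 8.35 and 8.36 CPM in WT libraries. The HE libraries held 0 counts of the 4 Y-linked genes examined, against 2325 and 2620 counts in KO and 2053 and 2020 counts in WT libraries, although all are labelled male. Xist, scaled by library totals alone, had 662 and 668 CPM in KO, 1052 and 1048 CPM in HE, and 666 and 656 CPM in WT libraries. The KO and WT libraries thus held both Y-linked and Xist counts. Each contrast with HE therefore also sets libraries without Y-linked counts against libraries with them. Of 10 nucleus pulposus markers 5 were tested, and T and Shh had 0 counts in all libraries and Acan 8 in all. The tested ones summed to at most 78.7 CPM in any library. Markers of macrophages summed to at least 14106 CPM and those of fibroblasts to at least 13121 CPM. The name nucleus pulposus cells is therefore that of the labels, and these markers do not bear it out.

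Processed copies come first, because they decide what a count of a ribosomal protein gene holds. A copy is taken here as any gene of the table, outside the 90 matched symbols, whose GENCODE transcripts share at least 20% of the 50-base stretches of a member's transcript. Each copy was given to the 1 member it shares most with. There were 267 copies, given to 66 of the 84 genes. Of the other 18 genes, Rpl6 and Rps3a3 share sequence with copies given to Rpl6l and Rps3a2, and 16 share this much with no copy. Pseudogenes that carry a member's name but share less, such as those of Rps24, do not count as copies here. Of the 185 copies with enough counts to be tested, 161 are annotated as processed pseudogenes. The coding parts of Rpl3 (chromosome 15, 80077791 to 80091868, minus strand, GRCm38) and of its processed pseudogene Rpl3-ps1 (chromosome X, 13202571 to 13203780, plus strand) differ at 2 of 1209 bases, C57A and T786C, with Rpl3 given first and positions counted from the A of the start codon. The stretches around both bases, from GENCODE transcripts on GRCm38, show how little tells the genes apart, with the differing base in capitals:
Rpl3, bases 37 to 77: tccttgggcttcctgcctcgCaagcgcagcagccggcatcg
Rpl3-ps1, bases 37 to 77: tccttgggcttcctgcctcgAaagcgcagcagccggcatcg
Rpl3, bases 766 to 806: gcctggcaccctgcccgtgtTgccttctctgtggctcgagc
Rpl3-ps1, bases 766 to 806: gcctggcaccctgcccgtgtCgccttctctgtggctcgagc

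Rps7 (chromosome 12, 28630854 to 28635953, minus strand) and its transcribed processed pseudogene Gm6472 (chromosome X, 152909505 to 152910155, minus strand) differ at 3 of 582 coding bases, T26G, G48A and G123T. The coding bases around the first of these are shown, since this pair carries the single increase among the 84 genes in the contrasts with WT:
Rps7, bases 6 to 46: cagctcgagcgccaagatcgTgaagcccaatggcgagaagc
Gm6472, bases 6 to 46: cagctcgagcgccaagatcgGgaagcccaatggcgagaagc

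Other pairs are closer still. Rps27 and Rps27rt, annotated as protein coding, are identical over all 252 coding bases, as are Rpl10a and Rpl10a-ps1 over 648 and Rps29 and Gm14303 over 168. For such pairs a short read inside the coding part cannot be given to either gene. The sources used here do not give how the authors' counting dealt with these reads, so a count in a member or in its copy is uncertain to that extent.

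Some genes kept almost none of their family's counts. Over the 6 libraries the gene itself held a median of 87.1% of the counts of gene plus copies, but 28 of the 84 genes held 50% or less. Rps13, a small-subunit protein gene named here after its values were seen, held 1.97%, and its copy Rps13-ps1 had 2661 and 2505 counts in KO, 2079 and 2413 in HE, and 3010 and 3072 in WT libraries. Rps29, whose product binds zinc in the small subunit, held 2.23%, with most of the counts in Gm14303. Rpl10a held 8.36%, with the rest almost all in Rpl10a-ps1. At the other end, Rplp0, the large-subunit stalk protein gene often used as a reference transcript, held 99.3%. Uniqueness of the transcript alone does not order these shares: Rps29 has 64.2% of its 50-base stretches in no other gene and Rplp0 has 58.2%.

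**Figure D1:**
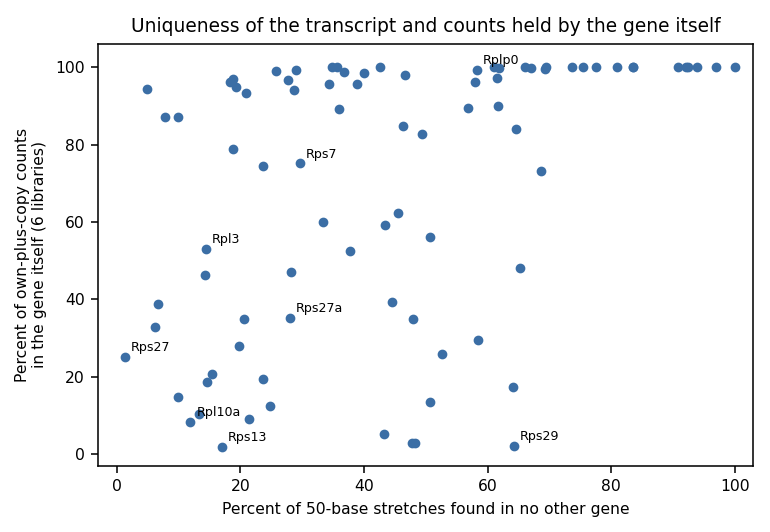
Each point is 1 of the 84 ribosomal protein genes; the x axis gives the percent of the 50-base stretches of its transcript that occur in no other GENCODE gene, and the y axis the percent of its own plus its copies' counts that lie in the gene itself, over 6 libraries. Rps13, Rps29 and Rpl10a lie near 0% and Rplp0 near 100%.

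Adding the copies narrowed the spread of levels between genes. Per kb of coding length, which is known for 81 genes, the mean level lay between 4.08 CPM per kb for Rps13 and 5360 CPM per kb for Rpl41, with a median of 330.2. The upper quartile was 12.2 times the lower. With copies added, the median was 439 CPM per kb, the upper quartile was 2.76 times the lower, and the lowest gene was Rpl27 at 25.8 CPM per kb. Rpl41 encodes a very small protein, with a coding length of 75 bases in a transcript of 544 bases, so that its value per coding kb is inflated.

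In KO against WT cells the ribosomal protein genes were lower together, by a small amount. Of the 84 genes, 54 were lower and 1 was higher at an adjusted p below 0.05 (edgeR quasi-likelihood test, Benjamini-Hochberg over 16061 genes), and 29 did not pass. The background was 18.9% of all tested genes called lower and 19.2% called higher. The median log2 fold change of the 84 genes was -0.21, a fold of 0.864, against -0.003 for all tested genes, and 81 of 84 values were below 0. The small subunit had 21 lower and 1 higher of 34, and the large subunit 33 lower of 50. Abundant genes are called more often, so members at 100 CPM or more are read against their like: 39 of 49 were lower, against 34.9% of all genes at that level.

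Heterozygous cells gave nearly the same picture. In HE against WT cells 53 of the 84 genes were lower and 1 was higher, and 30 did not pass, against a background of 19.7% lower and 19.2% higher. Their median log2 fold change was -0.19, against -0.003 for all tested genes, with 77 of 84 values below 0. Of the members at 100 CPM or more, 36 of 49 were lower, against 32.7% of all genes at that level. Both contrasts use the same WT libraries, and so do not count as separate observations. Both KO libraries lay below both WT libraries for 72 of 84 genes, where 33.4% of all tested genes did so, and both HE libraries lay below both WT libraries for 67 of 84, against 34.0%.

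Between KO and HE cells no common shift was seen. The median log2 fold change was -0.001, with 11 genes lower and 10 higher in KO, against a background of 17.9% lower and 19.1% higher. Both counts lie below their background.

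**Figure D2:**
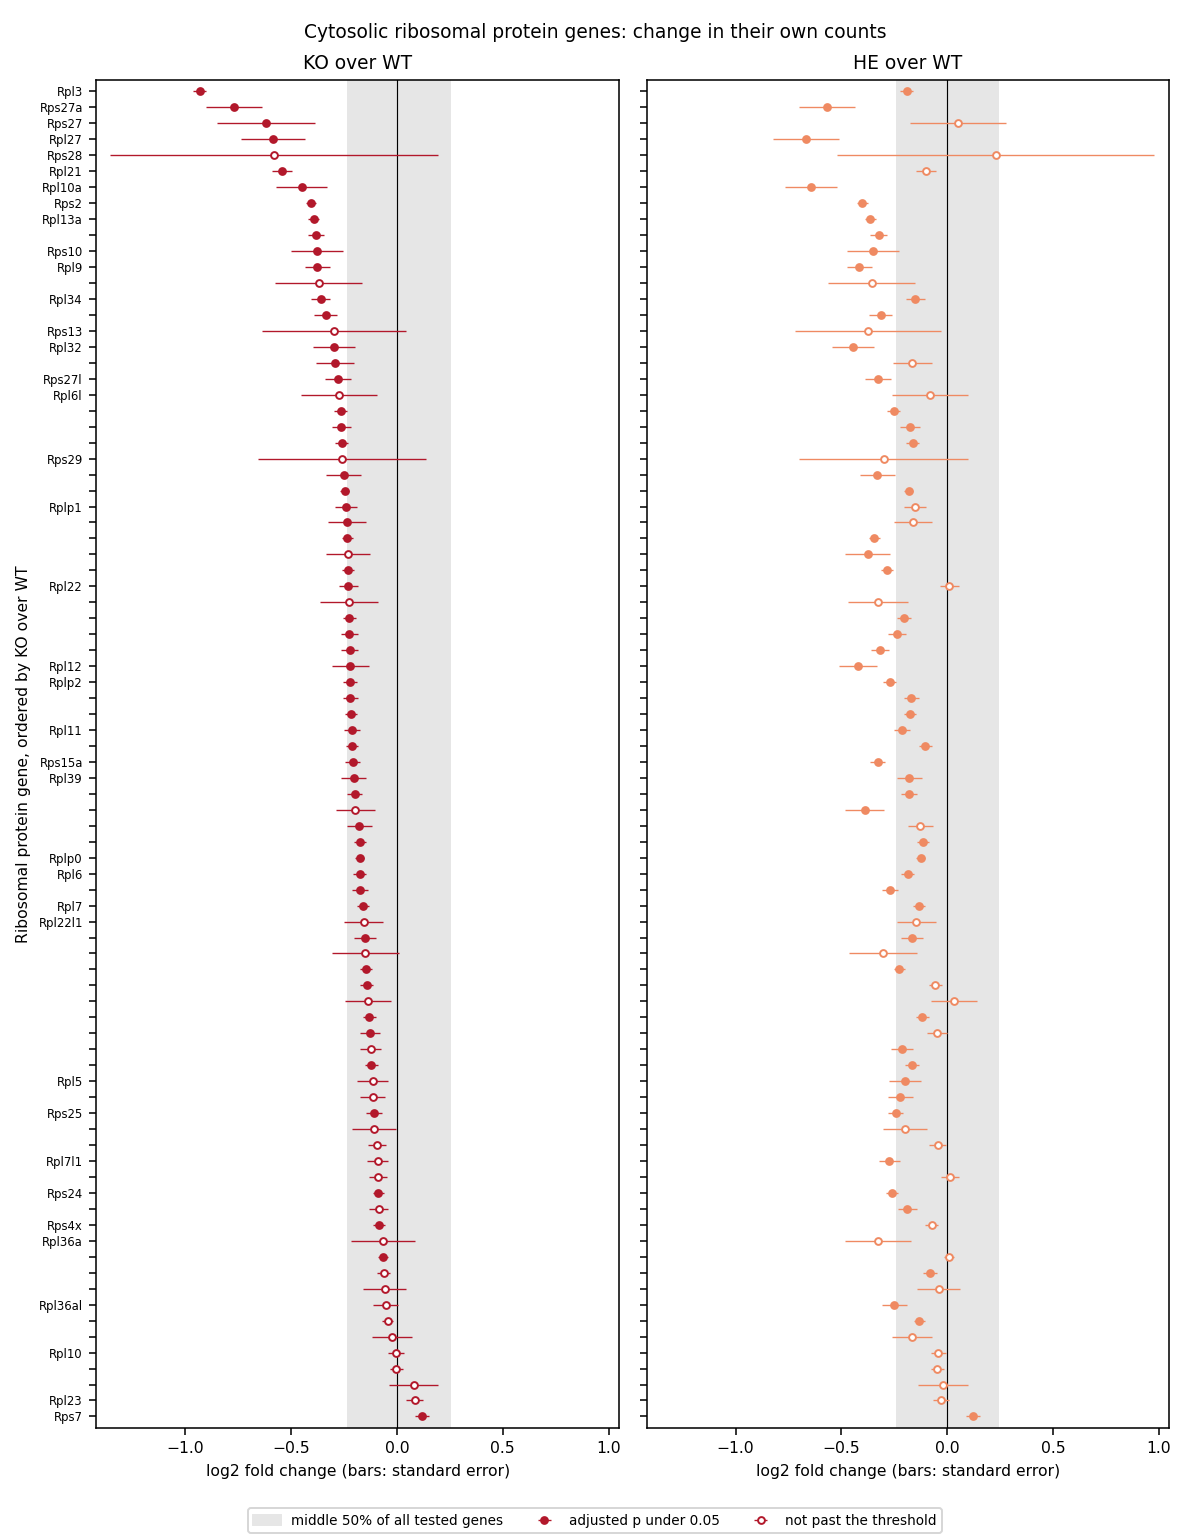
Log2 fold change of each of the 84 ribosomal protein genes in KO over WT (left) and HE over WT (right), ordered by the left panel, with the standard error as bars and names beside a selection of genes described in the text; filled points have an adjusted p below 0.05 and the grey band is the middle 50% of all tested genes. Most points lie left of 0 in both panels, Rpl3 at -0.93 leads on the left, and Rps7 at 0.12 is the filled point to the right of 0 in both.

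The summed share of the counts was also lower than in WT. The 84 genes took 1.73% and 1.72% of all counts in KO, 1.66% and 1.68% in HE, and 1.97% and 1.90% in WT libraries. With copies the shares were 2.18% and 2.17% in KO, 2.07% and 2.09% in HE, and 2.48% and 2.39% in WT libraries. All KO and HE libraries lay below both WT libraries, with and without copies. These shares are of raw totals, on which HE lay below KO. Divided by the scaling factors, the shares without copies were 1.70% and 1.68% in KO, 1.70% and 1.71% in HE, and 1.96% and 1.89% in WT libraries, so that the order of KO and HE depends on the scaling. With 2 libraries against 2, the smallest p that an exact two-sided permutation test allows is 0.333, so no test is given for these shares.

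**Figure D3:**
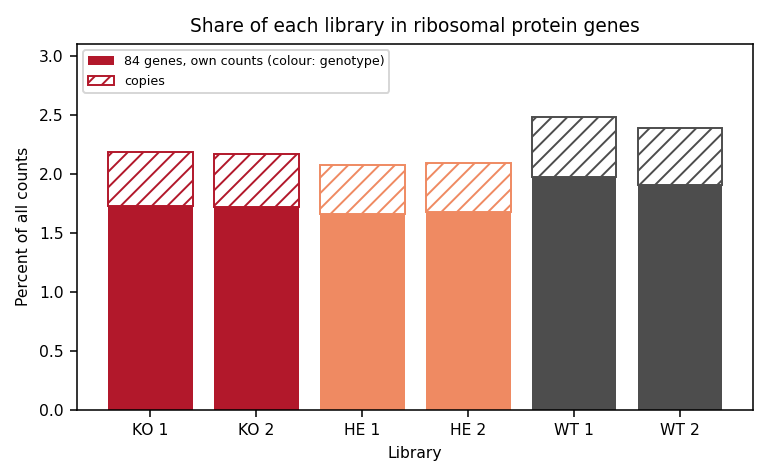
Percent of all counts in the 84 ribosomal protein genes (filled) and in their copies (hatched, stacked) for each library, with genotypes by colour and the axis starting at 0. The stacked bars reach 2.18 and 2.17 in KO, 2.07 and 2.09 in HE, and 2.48 and 2.39 in WT libraries.

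Rpl3, which encodes a core protein of the large subunit next to the peptidyl transferase centre, moved most. It had 5935 and 5995 counts in KO, 8501 and 9547 in HE, and 11652 and 11429 in WT libraries, or 180.1 and 176 CPM, 295 and 300.3 CPM, and 342 and 336 CPM in the same order of libraries. The groups did not overlap, with KO lowest and WT highest. Its log2 fold change was -0.93 ± 0.03 (SE) in KO over WT with an edgeR adjusted p of 7.06e-27, and -0.74 in KO over HE with an adjusted p of 4.54e-23. In HE over WT it was -0.19, with an adjusted p of 1.98e-06.

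Its copy Rpl3-ps1 moved the other way in KO cells. It had 9325 and 9805 counts in KO, 5558 and 6128 in HE, and 7394 and 7224 in WT libraries, and was higher in KO than in WT by 0.41 on the log2 scale (edgeR adjusted p = 2.75e-14). Rpl3 held 38.3% and 37.4% of the counts of gene plus copies in KO libraries, against 59.5% and 60.1% in HE and 60.2% and 60.6% in WT libraries. Summed over gene and copies, the family was lower by far less, at -0.26 in KO over WT (edgeR adjusted p = 1.75e-11), -0.18 in HE over WT and -0.08 in KO over HE. Rpl3 averaged 178 ± 3.04 CPM in KO and 339 ± 4.35 CPM in WT libraries, and Rpl3-ps1 averaged 285 ± 3.22 CPM in KO and 215 ± 3.35 CPM in WT libraries (SD, n = 2 each). The gain of the copy was smaller than the drop of the gene. Whether transcription of the copy, or the giving of reads to one or the other, differed between the groups was not tested.

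Rps7, a small-subunit protein gene, was the 1 member higher in either contrast with WT. It had 246 and 248 CPM in KO, 243 and 253 CPM in HE, and 232 and 223 CPM in WT libraries, so both WT libraries were lowest. The log2 fold change was 0.12 ± 0.03 in KO over WT (edgeR adjusted p = 0.00316) and 0.12 ± 0.03 in HE over WT (adjusted p = 0.0029). Without the second WT library it was 0.09 in both contrasts and no longer passed, with adjusted p of 0.0893 in KO and 0.0793 in HE. Without the second HE library the HE contrast did not pass either (adjusted p = 0.0989).

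The copy Gm6472 had 2324 and 2394 counts in KO, 1158 and 1291 in HE, and 4343 and 4069 in WT libraries. Its log2 fold change was -0.81 in KO over WT (edgeR adjusted p = 1.89e-17) and -1.61 in HE over WT, with no overlap between any groups. The share of the family's counts in Rps7 itself was 77.7% and 77.9% in KO, 85.8% and 86.2% in HE, and 64.5% and 65.1% in WT libraries. Summed over gene and copies the direction turned round, to -0.15 in KO over WT (edgeR adjusted p = 9.04e-05) and -0.29 in HE over WT (adjusted p = 2.19e-10). Adding only the pseudogenes that carry the gene's name, which leaves out Gm6472, kept Rps7 higher at 0.12 in both contrasts (edgeR adjusted p of 0.00393 in KO and 0.00304 in HE), with 1 of the 84 genes higher in each.

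**Figure D4:**
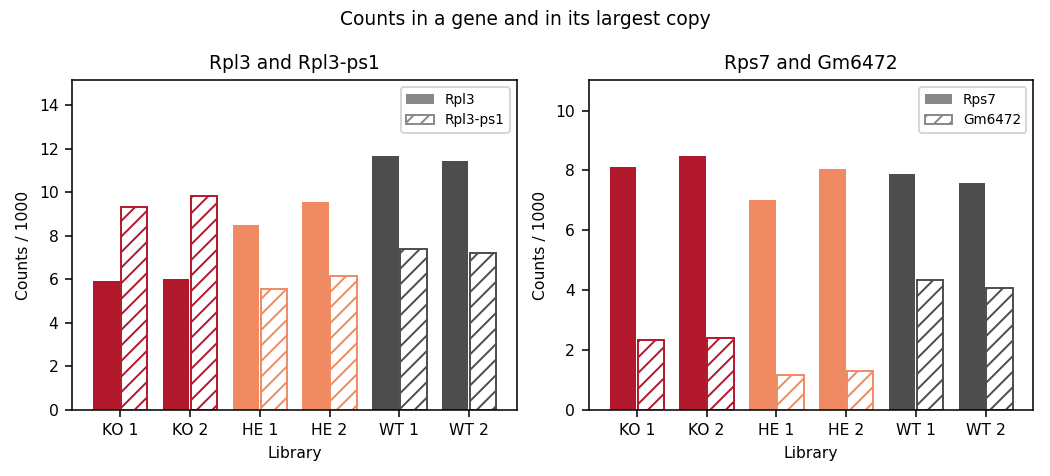
Counts (divided by 1000, bars from 0) in each library for Rpl3 and Rpl3-ps1 (left) and for Rps7 and Gm6472 (right), with the gene filled, its copy hatched and genotypes by colour. Rpl3-ps1 exceeds Rpl3 in the KO libraries only, and Gm6472 is highest in the WT libraries.

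A shift between gene and copies of over 5 percentage points was seen in 6 genes between KO and WT and in 2 genes between HE and WT. Rpl21, a large-subunit protein gene on chromosome 5, held 32.8% and 35.3% of its family's counts in KO, 40.9% and 41.7% in HE, and 42.0% and 41.5% in WT libraries. Its own log2 fold change was -0.54 ± 0.05 in KO over WT (edgeR adjusted p = 7.75e-13), and -0.25 with copies. Rpl21 itself had 2513 and 2802 counts in KO, 3075 and 3466 in HE, and 4044 and 3808 in WT libraries. Its copies together had 5137 and 5128 counts in KO, 4442 and 4849 in HE, and 5585 and 5371 in WT libraries. The shift thus lay mostly in the gene's own counts. Among the copies were 2 small ones that held few of these counts. Rpl21-ps10 had 56 and 67 counts in KO, 2 and 5 in HE, and 1 and 4 in WT libraries, and Gm10240 had 44 and 44 in KO, 4 and 4 in HE, and 2 and 1 in WT libraries. Both copies, singled out after their values were seen, were close to absent outside KO.

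With the copies assigned to each gene added, 0 of the 84 ribosomal protein genes were called higher than WT by edgeR. In KO over WT 65 of the 84 were lower, against 19.1% of all genes fitted that way, and 52 of the 54 called before remained, with Rps10 and Rps27 lost. In HE over WT 68 were lower, against 19.9%, and all 53 called before remained. The medians were -0.19 in both contrasts. The 3 members annotated as processed pseudogenes stayed separate members and were not added to a parent gene. Of these 3, 2 were among the lower in KO and 1 in HE. At an unadjusted p below 0.05, and in DESeq2, 0 of the summed genes were higher in either contrast. The 16 genes that share at least 20% with no copy gave 14 lower and 0 higher in each contrast by edgeR, with 16 values below 0 in KO and 14 in HE. Sharing below that limit remains: Rpl13a, 1 of the 16, has 42.6% of its 50-base stretches in no other gene. Of the 16 genes, 10 also have no counts in a pseudogene of their name, and 8 of the 10 were lower in KO over WT and 9 in HE over WT, with 0 higher. In both sets 0 were higher at an unadjusted p below 0.05 or in DESeq2. This summing and these sets were chosen after the data were seen.

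**Figure D5:**
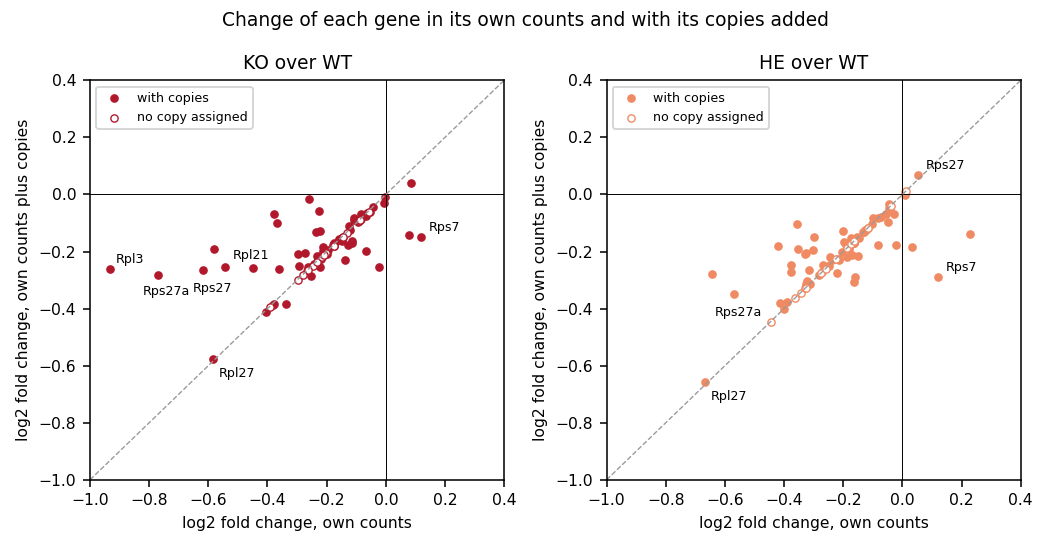
Log2 fold change of each of the 84 genes from its own counts (x axis) and from its counts plus those of its copies (y axis), for KO over WT (left) and HE over WT (right); open points have no copy assigned and the dashed line marks equality. On the left Rpl3 lies at -0.93 from its own counts and -0.26 with copies, and Rps7 at 0.12 and -0.15, while Rpl27 lies near the line.

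Among the other genes with large drops, Rpl27, a large-subunit protein gene, fell in both contrasts and kept its value with copies. It had 7.68 and 8.68 CPM in KO, 6.48 and 8.93 CPM in HE, and 13.3 and 11.2 CPM in WT libraries, with both WT libraries above all others. The log2 fold changes were -0.59 ± 0.15 in KO over WT (edgeR adjusted p = 0.00175) and -0.67 ± 0.15 in HE over WT (adjusted p = 0.000489), and -0.58 and -0.66 with copies. Rps27a, which encodes a small-subunit protein fused to ubiquitin, had 11.4 and 11.3 CPM in KO, 10.3 and 15.8 CPM in HE, and 19.0 and 19.7 CPM in WT libraries. Its log2 fold change of -0.77 in KO over WT became -0.28 with copies. The HE contrast, at -0.57, did not pass without the first HE library, where it was -0.29 (edgeR adjusted p = 0.0996).

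Rps27, a zinc-binding small-subunit protein gene, was close to the limit of the counts. It had 3.4 and 2.84 CPM in KO, 6.03 and 3.93 CPM in HE, and 4.41 and 5.18 CPM in WT libraries. Its log2 fold change of -0.62 ± 0.23 in KO over WT had an edgeR adjusted p of 0.0308, and did not pass without the second KO library (0.203), without the second WT library (0.174) or with copies (0.0548). Its paralogue Rps27l, which has no copy in the table, was lower at -0.28 in KO and -0.33 in HE over WT.

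The most precise drops were in abundant genes. Rps2, at the mRNA entry channel of the small subunit, had 572 and 556 CPM in KO, 571 and 562 CPM in HE, and 759 and 736 CPM in WT libraries. Its log2 fold change was -0.41 ± 0.02 in KO and -0.40 ± 0.02 in HE over WT (edgeR adjusted p of 7.7e-18 and 1.73e-17). Rpl13a, a large-subunit protein gene with no copy counted here, had 471 and 470.5 CPM in KO, 474 and 487 CPM in HE, and 629 and 606 CPM in WT libraries, with log2 fold changes of -0.39 and -0.36. KO and HE libraries of both genes lay together and apart from WT. Rps2 and Rpl13a were singled out after their values were seen.

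The stalk proteins, which recruit the translation factors, were lower to a small degree. Rplp0 had 1476 and 1445 CPM in KO, 1502 and 1526 CPM in HE, and 1667 and 1634 CPM in WT libraries, at -0.18 ± 0.02 in KO over WT (edgeR adjusted p = 1.4e-09) and -0.12 ± 0.02 in HE over WT. Rplp2 was lower at -0.22 in KO and -0.27 in HE over WT. Rplp1 was lower at -0.24 in KO over WT (adjusted p = 0.00953, and 0.0511 without the first HE library), and at -0.15 in HE over WT did not pass (0.0598). Rplp1 passed in the HE contrast under other settings, with an adjusted p of 0.000254 when only the 4 libraries compared were fitted.

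Rpl5 and Rpl11, which join the 5S RNA in a particle that restrains Mdm2, were not alike in precision. Rpl11 had 163 and 172 CPM in KO, 165 and 169.6 CPM in HE, and 200.2 and 188 CPM in WT libraries, and was lower at -0.21 ± 0.04 in both contrasts (edgeR adjusted p of 1.15e-05 in KO and 1.42e-05 in HE). Rpl5 held 32.9% of its family's counts, and from its own counts it was at -0.12 ± 0.08 in KO over WT (adjusted p = 0.243) and -0.20 ± 0.08 in HE over WT (0.035). The HE value did not pass without the second HE library or without either WT library. With copies Rpl5 was lower at -0.17 in both contrasts, with adjusted p of 0.00269 in KO and 0.00299 in HE.

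Of the members whose human orthologues are mutated in Diamond-Blackfan anaemia, an inherited failure of red cell production, 14 of 21 were lower and 1 higher in KO over WT, with a median of -0.23. In HE over WT 16 were lower and 1 higher, with a median of -0.22. The shares lower, 66.7% in KO and 76.2% in HE, stand beside 64.3% and 63.1% of all 84 members. In both cases the higher gene was Rps7.

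The 4 genes on the X chromosome had medians of -0.08 in KO and -0.13 in HE over WT, with 2 lower in KO and 1 lower in HE. These are 50% and 25%, beside 64.3% and 63.1% of all 84 members and 18.9% and 19.7% of all tested genes. With only 4 genes, these shares say little about X-linked members. Rps4x, a small-subunit gene with a Y-linked partner in humans, had 569 and 537 CPM in KO, 536 and 578 CPM in HE, and 590.2 and 582 CPM in WT libraries. In HE over WT Rps4x did not pass as fitted, but passed under some other settings. It was at -0.07 with only the 4 libraries compared (edgeR adjusted p = 0.034) and at -0.08 with copies (0.0462). It was lower at -0.08 ± 0.03 in KO over WT (edgeR adjusted p = 0.023), which did not pass without the second KO library, without the first WT library or in DESeq2 (0.266). Rpl39, at the peptide exit tunnel, was at -0.20 in KO and -0.18 in HE over WT and passed in both, but in neither without the first WT library (adjusted p of 0.197 and 0.317). Rpl10 had 229 and 226 CPM in KO, 216 and 228 CPM in HE, and 239 and 217 CPM in WT libraries, which overlap. Rpl36a passed in neither contrast from its own counts, which are 18.6% of its family's, and with copies was at -0.20 in KO and -0.31 in HE over WT (adjusted p of 0.0176 and 0.000279).

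Among HE drops, Rpl10a, Rpl32, Rpl12 and Rpl9 of the large subunit followed Rpl27. Rpl9, part of the protein cluster near the base of the stalk, had 52.2 and 52.9 CPM in KO, 51.1 and 51.3 CPM in HE, and 69.9 and 66.6 CPM in WT libraries, at -0.38 in KO and -0.41 in HE over WT, and at -0.38 in both with copies. Rpl10a, at the exit site of the large subunit, had 12.9 and 12.7 CPM in KO, 12.2 and 10.3 CPM in HE, and 18 and 17 CPM in WT libraries. Its own log2 fold changes were -0.45 in KO and -0.64 in HE over WT, and -0.26 and -0.28 with copies. Rpl32 was at -0.30 in KO and -0.44 in HE over WT, and the KO value did not pass without the second KO library (edgeR adjusted p = 0.123) or without the first WT library (0.187). Rpl12, a stalk-base protein gene, was at -0.22 in KO and -0.42 in HE over WT, and its KO value (adjusted p = 0.0412) did not pass without any 1 of the KO or WT libraries.

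In KO against HE cells, the genes that were lower beside Rpl3, Rps27 and Rpl21 included Rpl22 and Rpl34. Rps27, at -0.67 in KO over HE, did not pass in DESeq2 (adjusted p = 0.0511), without the second KO library (edgeR adjusted p = 0.158) or without the first HE library, where it was -0.34 (0.414). Rpl22, an RNA-binding protein gene of the large subunit that shares sequence with no copy as defined here, had 129.9 and 124 CPM in KO, 141 and 159 CPM in HE, and 148 and 150.0 CPM in WT libraries. It was lower in KO, at -0.24 ± 0.04 over HE (edgeR adjusted p = 2.4e-05) and -0.23 ± 0.04 over WT (3.69e-05), while HE over WT was at 0.01 (0.896). Its paralogue Rpl22l1 passed in no comparison, at -0.16 in KO over WT and -0.01 in KO over HE. Rpl34 was at -0.21 in KO over HE, and at -0.05 with copies (adjusted p = 0.445), since its copy Rpl34-ps1 had 787 and 834 counts in KO, 407 and 404 in HE, and 869 and 599 in WT libraries.

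Higher in KO than in HE were Rpl36al, Rpl7l1, Rps24, Rps25, Rps15a and Rpl23, by 0.11 to 0.20 on the log2 scale. Rps24, a small-subunit protein gene whose 2 pseudogenes by name held 8256 counts over all libraries, had 401 and 406 CPM in KO, 351 and 365 CPM in HE, and 435 and 423 CPM in WT libraries. It was higher in KO than in HE by 0.17 ± 0.03 (edgeR adjusted p = 2.79e-06), and KO lay between HE and WT. Rpl7l1, a paralogue of Rpl7 known from early steps of large-subunit assembly, had 90.1 and 94.4 CPM in KO, 83.3 and 79.2 CPM in HE, and 99.9 and 96.6 CPM in WT libraries, at 0.18 ± 0.05 in KO over HE. Rpl7 itself was at -0.03 in KO over HE, and the difference between both paralogues was not tested. Rpl36al, an autosomal paralogue of Rpl36a, was at 0.20 in KO over HE. Of these genes, Rpl36al and Rpl7l1 did not pass without the second KO or without the second HE library, Rps25 without the second KO or the first HE library, Rps15a without the first HE library, and Rpl23 without any 1 of the KO or HE libraries.

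Among paralogues annotated as pseudogenes, Rpl6l was at 6.71 and 5.34 CPM in KO, 7.80 and 5.94 CPM in HE, and 7.61 and 6.92 CPM in WT libraries, and passed in no comparison. Its parent Rpl6 was lower at -0.18 in KO and -0.19 in HE over WT. Of the 3 members annotated as processed pseudogenes, 1 was lower in each contrast with WT and counts among the lower genes above. Rps3a2, named after its values were seen, was at -0.27 in KO and -0.18 in HE over WT (edgeR adjusted p of 6.08e-06 and 0.00186). These values come from the fit with pseudogenes added by name, which adds nothing to Rps3a2. The protein-coding Rps3a1 was at -0.004 and -0.05 there and passed in neither. At the low end of the counts, Rps29 had 1.21 and 1.88 CPM in KO, 2.12 and 0.912 CPM in HE, and 2.32 and 1.38 CPM in WT libraries. Its own log2 fold change of -0.26 ± 0.40 in KO over WT says little at this depth. With copies Rps29 was at -0.02 in KO over WT (edgeR adjusted p = 0.86) and at -0.15 in HE over WT (0.0283). Rps28, seen to spread most after its values were known, had 1.32 and 5 CPM in its WT libraries, and a standard error of 0.78 in KO over WT. With copies Rps28 was at -0.19 in KO and -0.14 in HE over WT (edgeR adjusted p of 0.000872 and 0.0177).

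The start of the mRNA was looked at in RefSeq start sites (GRCm38.p6), which cover 61 of the 84 genes. A tract of C followed by at least 4 C or T bases on the gene's strand began exactly at an annotated start in 13 of the 61 genes (21.3%), and in 3.01% of 27025 genes with such a window. Within 5 bases of a start it was found in 29 of the 61 (47.5%), and in 21.2% of all. Examples follow, with 10 bases before the start and 20 from it, and the tract in capitals. The first 4 begin with a tract that is among the longest found exactly at a start. Rps7 has no tract that begins within 5 bases of the start, and one that begins further in is left in small letters:
Rpl15, chr14:18270967-18270996, minus strand: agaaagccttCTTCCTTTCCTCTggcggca
Rpl35, chr2:39005112-39005141, minus strand: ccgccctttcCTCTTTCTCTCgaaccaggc
Rps10, chr17:27635225-27635254, minus strand: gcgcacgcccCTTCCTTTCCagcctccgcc
Rps6, chr4:86857348-86857377, minus strand: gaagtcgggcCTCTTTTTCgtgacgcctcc
Rps7, chr12:28635934-28635963, minus strand: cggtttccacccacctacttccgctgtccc
A match describes the letters at an annotated start and nothing about which start these cells use.

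The genes around the ribosome differed between lists and, for some lists, between the contrasts. Ribosome biogenesis factors, which process ribosomal RNA and assemble subunits, were lower for 30 and higher for 1 of 99 in KO over WT (median -0.13), and lower for 70 and higher for 0 in HE over WT (median -0.28; edgeR, with 0 higher at an unadjusted p below 0.05 or in DESeq2). In KO over HE 41 of the 99 were higher and 4 lower. The shares lower were 30.3% in KO and 70.7% in HE over WT, against the background of 18.9% and 19.7%, and the share higher in KO over HE was 41.4%, against 19.1%. Of the 84 members, 64.3% in KO and 63.1% in HE over WT were lower. Ncl, encoding nucleolin, had 455 and 459.5 CPM in KO, 411 and 421 CPM in HE, and 547 and 566 CPM in WT libraries, so that HE was lowest. Npm1, encoding nucleophosmin, was lower at -0.30 in KO and -0.34 in HE over WT. Ebna1bp2, a large-subunit assembly factor gene, was at -0.63 in KO and -0.33 in HE over WT. The 84 ribosomal protein genes showed no such gap between KO and HE, with a median of -0.001 in KO over HE, against 0.14 for the biogenesis factors; the difference between these medians was not tested.

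Translation initiation factors were lower for 24 and higher for 0 of 43 in KO over WT by edgeR (1 higher at an unadjusted p below 0.05, 0 in DESeq2), and lower for 28 and higher for 4 in HE over WT, with medians of -0.15 and -0.16. These are 55.8% and 65.1% lower, against 18.9% and 19.7% of all tested genes. Of all tested genes at 100 CPM or more, 34.9% and 32.7% were lower. The factor lists hold abundant genes and were not split by level. Eif2s2, a subunit of the factor that brings the initiator tRNA, was at -0.27 in KO and -0.35 in HE over WT, Eif3c at -0.17 and -0.14, and Eif4e2 at -0.27 and -0.23. Of 9 elongation factors 5 were lower in KO over WT, and in HE over WT 4 were lower and 1 higher. These are 55.6% and 44.4% lower, to be read beside the same shares of all tested genes and of those at 100 CPM or more. Eef1g, a subunit of the exchange factor complex of elongation factor 1, had 323 and 313 CPM in KO, 309.6 and 312 CPM in HE, and 424 and 432 CPM in WT libraries, at -0.43 and -0.46. Eef1d was at -0.38 in KO and -0.32 in HE over WT. The translocase gene Eef2 was lower in KO over WT at -0.15 and not in HE, at 0.01 (edgeR adjusted p = 0.807), and Eef1a1, which delivers aminoacyl-tRNA, was lower in KO at -0.04 and higher in HE at 0.04, with adjusted p of 0.0246 and 0.0279.

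Mitochondrial ribosomal proteins, which serve the separate ribosome of mitochondria, had 12 lower and 4 higher of 76 in KO over WT and 26 lower and 1 higher in HE over WT, with medians of -0.06 and -0.13. The share lower in KO, 15.8%, lies below the 18.9% of all tested genes and that in HE, 34.2%, above 19.7%, while the shares higher, 5.26% and 1.32%, lie below 19.2% in both contrasts. Mrpl17 and Mrpl12 were lower, at -0.38 and -0.34 in KO over WT, whereas Mrps23 had 19.4 and 19.1 CPM in KO, 18.9 and 20.6 CPM in HE, and 10.5 and 9.86 CPM in WT libraries, and was higher at 0.92 and 0.96. Fau, which encodes a ribosomal protein fused to a ubiquitin-like protein and lies outside the symbol rule, passed in HE over WT, at -0.25, and not in KO over WT, at 0.00. Rack1, a scaffold of the small subunit, had 289 and 286 CPM in KO, 301 and 292 CPM in HE, and 337 and 405 CPM in WT libraries, and passed in neither contrast. Of 7 ribosome-associated factors 4 were lower and 1 higher in KO over WT, among them Nacad at -0.74, Btf3 at -0.28 and Serbp1 at -0.19.

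Regulators of ribosome production in the mTOR and Myc lists were split, with 12 higher and 11 lower of 41 in KO over WT and 13 higher and 7 lower in HE over WT. The shares higher were 29.3% in KO and 31.7% in HE, against 19.2% of all tested genes in both, and the shares lower were 26.8% and 17.1%, against 18.9% and 19.7%. Myc, a transcription factor that drives ribosome production, had 41.9 and 43.1 CPM in KO, 34.8 and 36.1 CPM in HE, and 51.4 and 57.7 CPM in WT libraries, and was lower at -0.36 ± 0.07 in KO and -0.62 ± 0.07 in HE over WT (edgeR adjusted p of 2.82e-05 and 6.7e-10). Larp1, the binding protein of the pyrimidine motif, was at -0.13 in KO and -0.28 in HE over WT. Mtor did not pass, at -0.03 and -0.01. Rictor, a subunit of mTOR complex 2, had 82.5 and 79.7 CPM in KO, 66.8 and 65.0 CPM in HE, and 162 and 166 CPM in WT libraries, at -1.02 and -1.31. The Rag GTPase genes Rragc and Rragd, which bring mTOR complex 1 to the lysosome, were higher at 0.34 and 0.98 in KO over WT.

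Markers of cell types and of growth moved between the same groups. Summed nucleus pulposus markers, with 5 of 10 tested, lay between 52.8 and 52.9 CPM in KO, 51.5 and 54.8 CPM in HE, and 74.6 and 78.7 CPM in WT libraries. The sums in KO and HE were thus below WT. By edgeR 3 of the 5 were lower and 0 higher in KO over WT, and 3 were lower and 2 higher in HE over WT. Summed macrophage markers, with 12 of 12 tested, lay between 16070 and 16254 CPM in KO, 17042 and 17154 CPM in HE, and 14106 and 14380 CPM in WT libraries. Summed fibroblast markers, with 8 of 8 tested, lay between 13121 and 13190.1 CPM in KO, 28383 and 29081 CPM in HE, and 22138 and 22561 CPM in WT libraries. Summed adipocyte markers, with 6 of 6 tested, lay between 491 and 496 CPM in KO, 377 and 379.7 CPM in HE, and 202 and 205 CPM in WT libraries. The 6 proliferation genes summed to between 1133 and 1138 CPM in KO, 783 and 799 CPM in HE, and 983 and 993 CPM in WT libraries, so that KO was above WT and HE below it. By edgeR 3 of the 6 were higher and 0 lower in KO over WT, and 6 were lower in HE over WT. The median of the ribosomal protein genes was below 0 in both contrasts, and its relation to the proliferation genes was not tested. Endothelial markers, with 4 of 5 tested, summed to at most 21.3 CPM in any library, and Schwann cell and skeletal muscle markers to at most 10.6 CPM, with Myod1 and Myog at 0 counts. No erythroid marker of 4 was tested. Markers within a list did not all move with its sum. By edgeR 7 macrophage markers were higher and 1 lower in KO over WT, and 5 were higher and 3 lower in HE over WT. Of the fibroblast markers 3 were higher and 5 lower in KO over WT, and 7 were higher and 1 lower in HE over WT. Of all tested genes 18.9% were lower and 19.2% higher in KO, and 19.7% and 19.2% in HE over WT. The part of cell makeup in the lower ribosomal protein counts was not tested.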

How the data were processed

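RNA sequencing of 6 libraries was analysed from 1 deposited table of raw read counts per gene symbol (whole numbers whose totals differ between libraries); 0 columns were left unused. Per the submitters' processing notes, HISAT2 2.0.4 and GRCm38 were used; the sources used here give no counting tool, annotation or strand setting, so antisense and overlapping genes cannot be told apart.

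Counts were fitted with edgeR 4.0.16 (R 4.3.3): default filter by group (16061 genes), TMM factors, 1 robust quasi-likelihood fit over 6 libraries with 3 residual degrees of freedom, two-sided F tests, and Benjamini-Hochberg adjustment over all tested genes at 0.05. CPM is TMM-scaled; the standard error is the absolute log2 fold change over the square root of F. Intervals are not given for single counts, since reads carry no molecular identifiers.

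Transcripts came from GENCODE M21 (GRCm38), matched by symbol, and start windows from RefSeq (GRCm38.p6); the authors' annotation may differ. Coding parts were aligned with Biopython 1.88.

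Members and lists were chosen with earlier results of these data known. Named per comparison were the 6 members with the largest increase and decrease past the threshold, the least and most abundant member, Rpl5, Rpl11, the stalk, X-linked and paralogous members, and 3 genes with the smallest p per related list with 8 others; further names are marked in the text, and some items the rule selects are not reported here. Alternatives were other scaling, DESeq2 1.42.0, other filters and minimums, 4-library fits, a replicate block, summed copies and leaving out each library. The steps were tested on simulated counts.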

Additional observations from a re-analysis of the deposited data

How the results depend on the processing

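The counts of lower ribosomal protein genes stayed within 1.5 times of those reported under every alternative run, at 41 to 65 in KO over WT and 45 to 68 in HE over WT. The count of higher genes, 1 in each contrast, became 2 in KO over WT and 0 in HE over WT with library totals alone, and 0 in both when the copies that share sequence were added. Leaving out 1 library gave 0 to 1 in both. In KO over HE the 11 lower and 10 higher genes became 5 and 23 with library totals alone, 15 higher when the copies were added, and 6 to 14 lower and 4 to 11 higher on leaving out 1 library, with the fewest in both directions without the second KO library; only the 4 libraries compared gave 15 lower. Adding the sequence-sharing copies turned Rps7 to -0.15 in KO over WT, -0.29 in HE over WT and 0.14 in KO over HE; library totals alone turned Rplp0 to 0.0123 in KO over HE. Those totals moved the median of all genes by at most 0.06 on the log2 scale. Replicate numbers did not pair the samples, since deviations of same-numbered libraries correlated at 0.02, 0.01 and -0.02; with the replicate block the counts were 55 and 1 in KO over WT, 54 and 1 in HE over WT, and 11 and 10 in KO over HE. The causes of these changes were not tested. Genes under about 10 CPM, such as Rps29 and Rps28, have standard errors above 0.1. At these errors a drop of the common size is hard to tell from no change.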
